A study of Mus musculus with 8 samples.

Results

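The proteasome genes of adipose tissue macrophages (ATMs) were described across obese, high-fat diet (HFD)-fed mice and lean, low-fat diet (LFD)-fed mice. The 39 genes were chosen by exact symbol: the structural subunits of the proteasome named Psma, Psmb, Psmc and Psmd, the activators Psme1 to Psme4, and Psmb10, which replaces a catalytic subunit in the immunoproteasome. Psmd5, Psmd9 and Psmd10 carry subunit names but encode chaperones that help to assemble the base of the regulatory particle, so they were kept as a class of their own. Of the 39 genes, 38 had a probe set that carried their symbol alone, among 18820 genes measured in this way. Psma4 was matched only by a probe set with several symbols and was not analysed here. The genes were proposed with earlier diet results of these arrays known, one of them the value of Psmd1, so their differences between the diets are a description of these arrays and not a test.

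ATMs came from epididymal adipose tissue of wildtype male C57Bl/6 mice and were isolated by magnetic selection for the surface protein of mouse macrophages that Adgre1 encodes. In each of 4 experiments, 1 array measured ATMs of HFD-fed mice and 1 array measured ATMs of LFD-fed mice, and each array held RNA pooled from several animals. The sample titles name lard as the fat in both diets. Fat supplied 45% of the energy of the HFD in experiments 1 and 3, 60% in the remaining pair, and 10% of the energy of the LFD throughout. Per the labels the diets lasted 16, 15, 16 and 10 weeks in experiments 1, 2, 3 and 4, so fat content and time on the diet were not varied separately. RNA was hybridised to whole-transcript microarrays, and levels are log2 values made with RMA, on which a difference of 1 is a doubling. Levels on single arrays are given in the order of experiments 1, 2, 3 and 4. A level depends on the probes of each probe set, so levels of different genes were not compared. Precision is limited by the number of arrays.

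The proteasome degrades proteins tagged with ubiquitin. Its core particle, the 20S proteasome, is a barrel of outer alpha rings, which gate the entry, and inner beta rings, which hold the cutting sites. The regulatory particle, the 19S proteasome, caps the barrel: its base contains a ring of ATPases that unfold the substrate and non-ATPase subunits that receive it, and its lid removes the ubiquitin chain. In immune cells, and under interferon-gamma in many others, the catalytic subunits Psmb6, Psmb7 and Psmb5 can be replaced in newly built cores by Psmb9, Psmb10 and Psmb8. The immunoproteasome that results cuts peptides for presentation on MHC class I, and the Psme1 and Psme2 proteins form the activator PA28 that often accompanies it.

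Several libraries stood apart from the rest in their cell type markers. Those of experiment 1 stood farthest apart in the macrophage list. In the endothelial list both arrays of experiment 1 lay above all others, and the LFD array of experiment 3 lay lowest. The mean level of 9 macrophage markers was 8.90 in HFD and 7.62 in LFD ATMs of experiment 1, against 10.20 to 10.51 in HFD and 10.12 to 10.71 in LFD ATMs of the other 3 experiments. The mean of 14 endothelial markers was 10.17 in HFD and 10.53 in LFD ATMs of experiment 1. In the other experiments it was 7.57, 7.63 and 7.25 in HFD ATMs of experiments 2, 3 and 4, and 8.46, 5.55 and 8.95 in LFD ATMs. The difference between HFD and LFD ATMs in the endothelial mean was -0.36, -0.88, 2.08 and -1.70 in experiments 1, 2, 3 and 4. The fibroblast and mural markers (10 genes) differed by 0.046, 0.59, 1.65 and -0.65. The cell division markers (5 genes) averaged 5.92, 6.34, 6.78 and 6.34 in HFD ATMs and 5.17, 5.25, 5.71 and 6.21 in LFD ATMs. The mean of the division markers was therefore higher in HFD ATMs in 4 of 4 experiments, while the endothelial mean was lower in 3 of 4. In experiment 4 the HFD minus LFD difference was 0.45 for Mki67, 0.40 for Rrm2 and 0.0006 for Bub1. It was -0.0033 for Top2a and -0.19 for Cdk1. The lymphocyte markers averaged 3.14 to 3.36 in HFD and 3.33 to 3.69 in LFD ATMs, under the log2 level of 4.32 that was used as the limit for dim probe sets. The neutrophil and mast cell list (5 genes) averaged 4.59 in HFD ATMs of experiment 2, with the mast cell gene Cpa3 at 7.07 and Mcpt4 at 5.33, against 3.09 to 3.60 in the other HFD and 3.19 to 3.54 in the LFD ATMs. Its difference of 1.37 fell in the experiment with the largest mean difference of the proteasome genes. The adipocyte list (6 genes) averaged 6.64, 5.61, 6.25 and 6.06 in HFD ATMs and 6.06, 5.85, 6.29 and 6.77 in LFD ATMs. Within it Retn was lower (-1.72), and Lep (0.45) and Lpl (1.55) were higher, in HFD ATMs in 4 of 4 experiments. Lpl is also expressed by macrophages. All 38 proteasome genes were above the limit for dim probe sets. In RNA of a whole selected fraction, fewer cells of a type and less RNA per cell cannot be told apart. The part of these markers in the differences described here was not tested.

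**Figure D1:**
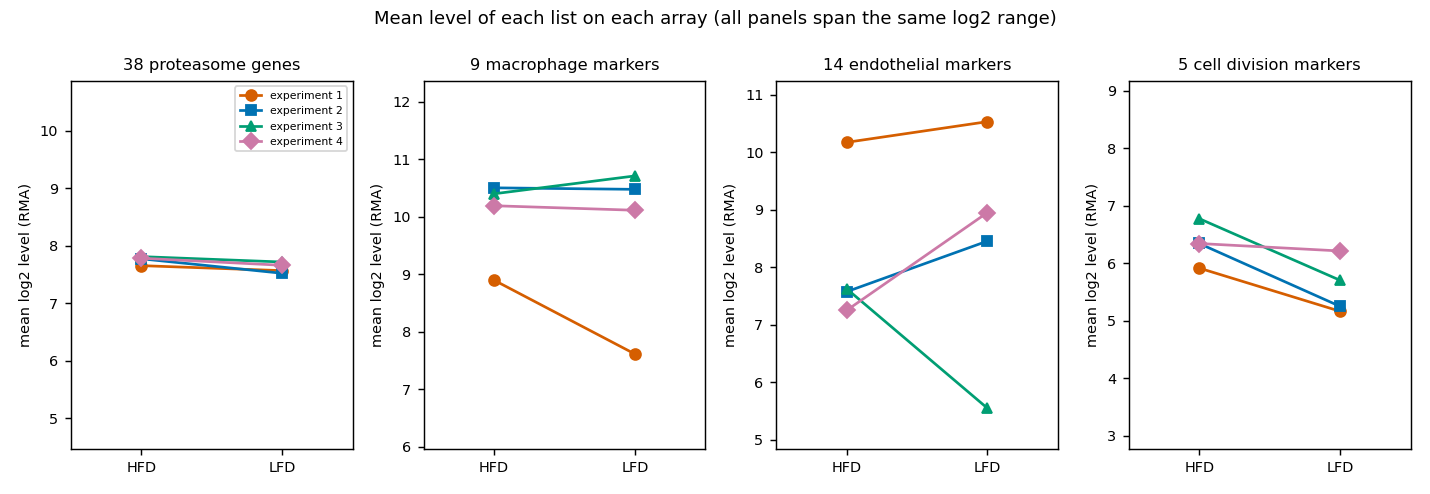
Mean log2 level on each of the 8 arrays for the 38 proteasome genes, 9 macrophage markers, 14 endothelial markers and 5 cell division markers, with HFD left and LFD right in each panel and a line joining the arrays of 1 experiment. All panels span the same log2 range, and the proteasome mean lies between 7.52 and 7.81 on all 8 arrays while the endothelial mean lies between 5.55 and 10.53.

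Over the 38 proteasome genes the median difference between HFD and LFD ATMs was 0.13 on the log2 scale, against 0.0049 over all 18820 genes. It was 0.091, 0.23, 0.051 and 0.13 in experiments 1, 2, 3 and 4. The mean level of the 38 genes was 7.66, 7.78, 7.81 and 7.79 in HFD ATMs and 7.57, 7.52, 7.72 and 7.66 in LFD ATMs, and the mean difference was 0.14 (SE 0.038 over 4 experiments). The mean difference lay above 0 for 26 genes and below 0 for 12, or 68.4% above 0 against 51.3% of all genes, and 31.6% below 0 against 48.7%. Single genes spanned -0.415 for Psmb10 to 0.84 for Psmb6. Within the experiments, 24, 29, 23 and 28 of the 38 genes were higher in HFD ATMs of experiments 1, 2, 3 and 4, against 45.8%, 53.6%, 43.1% and 52.6% of all genes. In all 4 experiments together, 15 genes (39.5%) were higher in HFD ATMs, where 11% of all genes were, and 3 genes (7.89%) were lower, where 7.43% of all genes were.

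No gene of the array passed an adjusted p of 0.05 in limma (Benjamini-Hochberg over 18820 genes, smallest value 0.98), so 0% of all genes and 0 of the 38 proteasome genes were called. At an unadjusted p under 0.05, limma gave 7 proteasome genes higher in HFD ATMs (Psmb6, Psmb7, Psmc4, Psmd1, Psmd2, Psmd3 and Psmd8, 18.4% against 3.3% of all genes) and 2 lower (Psmb10 and Psme2, 5.26% against 1.51%). With each array centred on its own median, 2 genes were higher (Psmb6 and Psmd1, where 1.66% of all genes were) and the same 2 lower (2.14%). The array medians lay between -0.15 and 0.11 of their mean, and the HFD minus LFD difference of the medians, which centring takes off every gene, was 0.065, 0.068, 0.16 and -0.081 in experiments 1, 2, 3 and 4. After centring the median difference over the 38 genes was 0.083, and 25 proteasome genes kept a mean difference above 0 (65.8% against 37.9% of all genes), and Psmb1 was at -0.0071. Centred in this way, 7 genes were higher in all 4 experiments (18.4% against 6.23% of all genes) and 5 were lower (13.2% against 12.3%). With experiment as a block 10 genes were higher (Psmd14, Psmd9 and Psme3 in addition, 26.3% against 7.95%) and again Psmb10 and Psme2 lower (4.16%). The smallest adjusted p of a proteasome gene in that fit was 0.075, for Psmd1, and 0 of 18820 genes passed. Without the arrays of experiment 1, 11 genes were higher (28.9% against 6.26%) and 0 lower (2.66%).

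**Figure D2:**
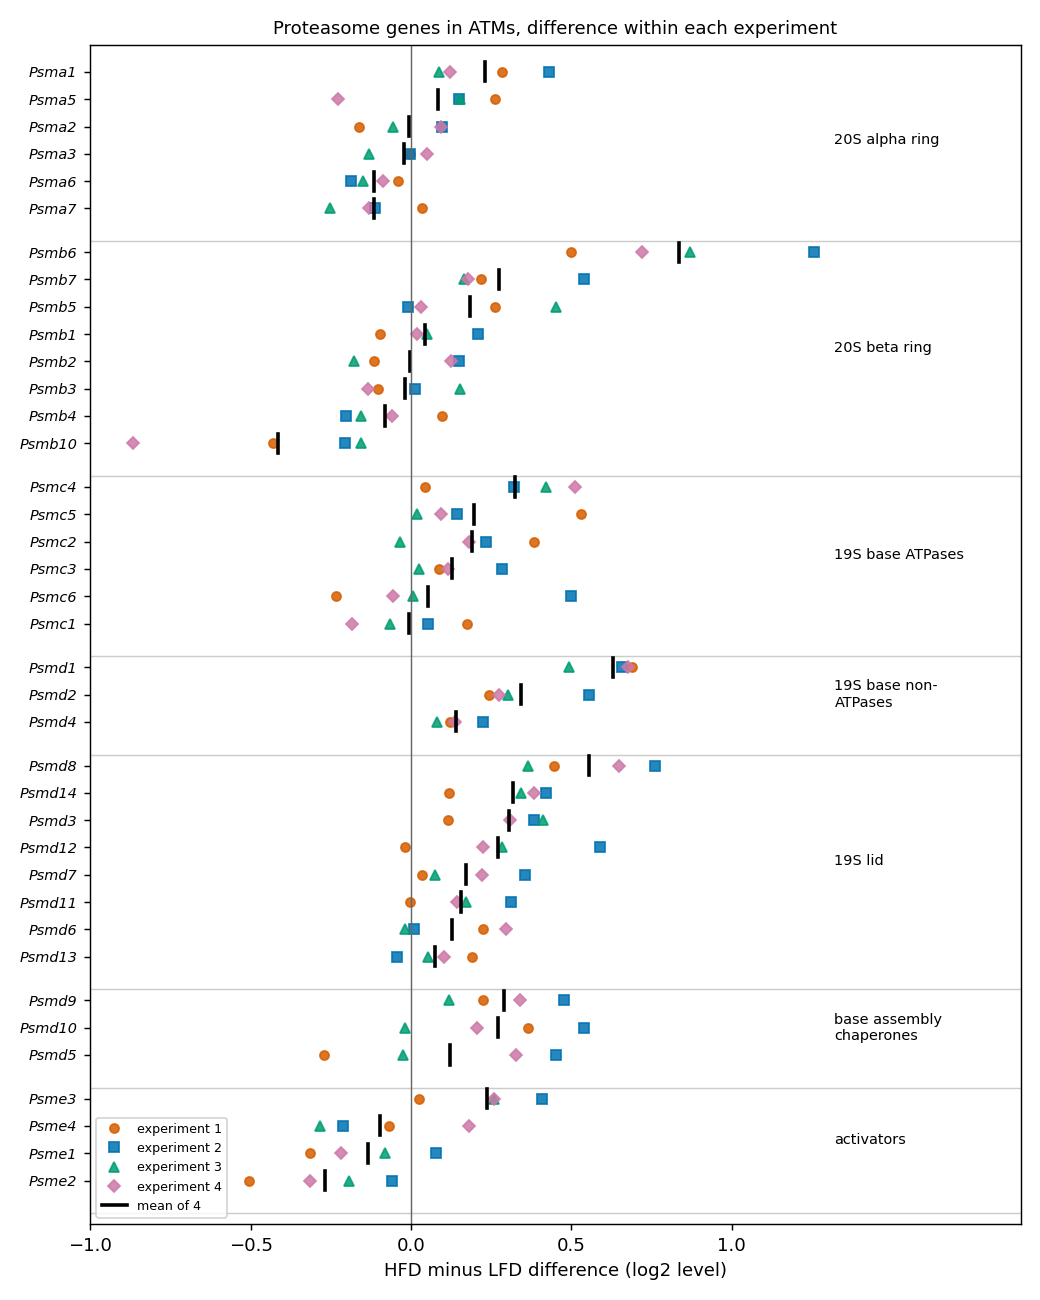
Difference in log2 level between HFD and LFD ATMs for each of the 38 proteasome genes, by class, with 1 symbol for each of the 4 experiments and a black bar for their mean. The genes of the 19S base and lid lie mostly right of 0, those of the 20S alpha ring lie on both sides, and Psmb6 at 0.84 and Psmb10 at -0.415 bound the range.

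The classes differed in where their genes lay. Over the 17 genes of the regulatory particle the median difference was 0.19. Of the 17, 16 had a mean difference above 0, where 51.3% of all genes did. Over the 14 genes of the core rings the median was -0.0056. The mean over the regulatory particle was 0.19, 0.34, 0.17 and 0.24 in experiments 1, 2, 3 and 4, and the mean over the core rings was 0.050, 0.15, 0.061 and -0.012. Class by class, the median was 0.16 for the 6 base ATPases, 0.34 for the 3 base non-ATPases, 0.22 for the 8 lid genes and 0.27 for the 3 base chaperones. It was -0.015 for the 6 alpha ring genes, 0.020 for the 8 beta ring genes and -0.12 for the 4 activators. These are descriptions of classes of unequal size, and the difference between classes was not tested.

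The alpha ring gates the entry of the barrel. Of its 6 genes, 2 had a mean difference above 0, Psma1 and Psma5 (33.3% against 51.3% of all genes). Psma1 had levels of 7.99, 8.35, 8.20 and 8.22 in HFD ATMs and 7.71, 7.92, 8.11 and 8.10 in LFD ATMs. It was higher in HFD ATMs in each experiment, by 0.23 on average (SE 0.12), although the groups overlapped because the HFD array of experiment 1 lay under the LFD arrays of experiments 3 and 4. Psma5 stood at 7.06, 7.15, 7.21 and 6.83 in HFD ATMs and 6.79, 6.99, 7.06 and 7.06 in LFD ATMs. Experiment 4 went the other way, and the mean difference of 0.085 (SE 0.11) was smaller than its error. A second Psma5 probe set had a difference of -0.31 in experiment 1 and 0.41 in experiment 4 and a mean of 0.096, so the probe sets of this gene disagreed within experiments. Psma7 had 7.89, 7.91, 7.84 and 7.91 in HFD ATMs and 7.85, 8.02, 8.09 and 8.04 in LFD ATMs. It was lower in HFD ATMs in experiments 2, 3 and 4, with a mean difference over all 4 of -0.12 (SE 0.075). Psma2, Psma3 and Psma6 had mean differences of -0.0070, -0.023 and -0.115, and Psma6 was lower in HFD ATMs in 4 of 4 experiments.

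The beta ring held both the highest and the lowest differences of the 38 genes. Psmb6, the caspase-like catalytic subunit of the constitutive core, had levels of 9.37, 9.84, 10.20 and 10.26 in HFD ATMs and 8.87, 8.59, 9.33 and 9.54 in LFD ATMs. It was higher in HFD ATMs in each experiment, by 0.50, 1.26, 0.87 and 0.72. The groups overlapped because the HFD array of experiment 1 lay under the LFD array of experiment 4. The mean was 9.92 ± 0.41 in HFD and 9.08 ± 0.43 in LFD ATMs (SD, n = 4 each), a difference of 0.84 (SE 0.27) with an adjusted p of 0.98 in limma. The SE was 0.14 with experiment as a block, with an adjusted p of 0.12. RefSeq lists pseudogene copies of Psmb6, Psmb7, Psmb5 and Psma5, and a gene copy of Psme2 named Psme2b. Whether their transcripts reach these probe sets was not tested, so the values of these genes are uncertain to that extent.

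Psmb7, the trypsin-like subunit, had 8.66, 8.89, 8.75 and 8.62 in HFD ATMs and 8.44, 8.35, 8.59 and 8.44 in LFD ATMs. All 4 HFD arrays lay above all 4 LFD arrays, with a mean difference of 0.28 (SE 0.089). Such separation was found for 4 of the 38 genes (Psmb7, Psmc5, Psmd1 and Psmd2, 10.5%), against 1.19% of all genes. Psmb5, the chymotrypsin-like subunit and the main target of the inhibitor bortezomib, differed by 0.26, -0.0099, 0.45 and 0.030 in experiments 1, 2, 3 and 4. Its mean difference was 0.18 (SE 0.15).

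Psmb10, which takes the place of Psmb7 in the immunoproteasome, had 7.72, 7.56, 7.72 and 7.12 in HFD ATMs and 8.15, 7.77, 7.87 and 7.99 in LFD ATMs. All 4 HFD arrays lay below all 4 LFD arrays, as for Psme2 (2 of 38 genes, 5.26%, against 0.68% of all genes). The mean was 7.53 ± 0.28 in HFD and 7.95 ± 0.16 in LFD ATMs (SD, n = 4 each), a difference of -0.415 (SE 0.155, adjusted p = 0.98 in limma). Experiment 4 had the lowest HFD array and a difference of -0.87, against -0.43, -0.21 and -0.15 in experiments 1, 2 and 3, and the mean without experiment 4 was -0.26. The structural beta subunits Psmb1, Psmb2, Psmb3 and Psmb4 lay between -0.081 and 0.045 on the probe sets used. A second, dimmer Psmb3 probe set had differences of 0.28, 0.31, 0.19 and -0.16 in experiments 1, 2, 3 and 4. Its mean difference was 0.16, so the probe sets of Psmb3 disagreed.

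The other immunoproteasome subunits, Psmb8 and Psmb9, are encoded in the MHC region and were measured outside the 38 genes. Psmb8 had 8.44, 8.40, 8.34 and 7.94 in HFD ATMs and 9.02, 8.56, 8.62 and 8.46 in LFD ATMs, a difference of -0.38 (SE 0.16) with every HFD array below every LFD array. Psmb9 had 7.28, 6.96, 6.96 and 6.40 in HFD ATMs and 7.86, 7.03, 7.70 and 7.04 in LFD ATMs. It was lower in HFD ATMs in each experiment, with a mean difference of -0.51 (SE 0.26), overlapping groups and a difference of -0.070 in experiment 2.

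Set side by side, the 3 constitutive catalytic genes averaged 8.18, 8.37, 8.57 and 8.57 in HFD ATMs and 7.86, 7.78, 8.07 and 8.26 in LFD ATMs. Their mean difference was 0.33, 0.60, 0.50 and 0.31 in experiments 1, 2, 3 and 4, or 0.43 (SE 0.069 over 4 experiments). The 3 immunoproteasome genes averaged 7.82, 7.64, 7.68 and 7.15 in HFD ATMs and 8.34, 7.79, 8.06 and 7.83 in LFD ATMs. Their mean difference was -0.53, -0.15, -0.39 and -0.68, or -0.44 (SE 0.11). The difference of the constitutive subunit exceeded that of its replacement in 4 of 4 experiments for each pair, by 1.34 (SE 0.11) for Psmb6 and Psmb9, 0.69 (SE 0.15) for Psmb7 and Psmb10, and 0.57 (SE 0.15) for Psmb5 and Psmb8. A shift common to all genes of an array cancels in these pair values. The smallest pair value of an experiment was 0.15, for Psmb5 and Psmb8 in experiment 2.

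**Figure D3:**
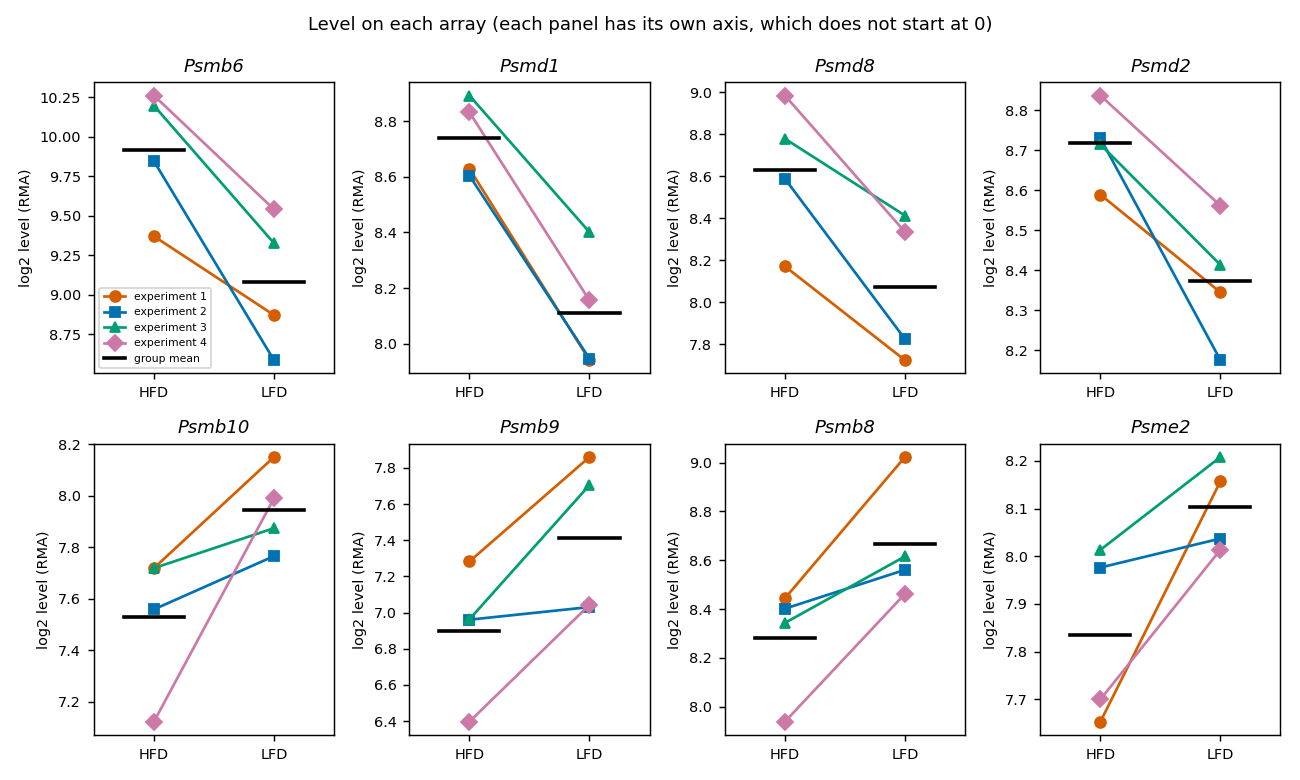
Log2 level on each array for Psmb6, Psmd1, Psmd8 and Psmd2 (top) and for Psmb10, Psmb9, Psmb8 and Psme2 (bottom), HFD left and LFD right, with a line for each experiment and a black bar for the group mean. Each line of the top row slopes down towards LFD and each line of the bottom row slopes up, and the axes differ between panels and do not start at 0.

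The base of the regulatory particle contains the ATPases Psmc1 to Psmc6 and the non-ATPase subunits Psmd1, Psmd2 and Psmd4. Psmd1 and Psmd2 are scaffolds to which ubiquitin receptors and shuttle proteins dock. Psmd1 had levels of 8.63, 8.60, 8.89 and 8.83 in HFD ATMs and 7.94, 7.95, 8.40 and 8.16 in LFD ATMs. Every HFD array lay above every LFD array, and the 4 differences of 0.69, 0.66, 0.49 and 0.68 were close to one another. The mean was 8.74 ± 0.14 in HFD and 8.11 ± 0.22 in LFD ATMs (SD, n = 4 each), a 1.55-fold higher level (log2 difference 0.63, SE 0.13). Psmd2 had 8.59, 8.73, 8.71 and 8.84 in HFD ATMs and 8.34, 8.18, 8.41 and 8.56 in LFD ATMs. Its groups did not overlap either, and the mean difference was 0.34 (SE 0.10). A second Psmd2 probe set was also higher in HFD ATMs in each experiment, by 0.31 on average. Psmd4, itself a ubiquitin receptor, had 7.39, 7.36, 7.37 and 7.62 in HFD ATMs and 7.27, 7.14, 7.29 and 7.48 in LFD ATMs, higher in each experiment by 0.082 to 0.22.

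Among the ATPases, Psmc4 had 7.14, 7.06, 7.40 and 7.40 in HFD ATMs and 7.10, 6.73, 6.97 and 6.89 in LFD ATMs. The difference was 0.045 in experiment 1 and 0.32, 0.42 and 0.51 in experiments 2, 3 and 4, with a mean of 0.32 (SE 0.12). Psmc5 had 7.12, 7.02, 7.03 and 7.06 in HFD ATMs and 6.59, 6.87, 7.01 and 6.97 in LFD ATMs. Its groups did not overlap, but 0.53 of difference in experiment 1 stood against 0.018 to 0.14 in the others, and the mean of 0.20 (SE 0.10) became 0.085 without experiment 1. Psmc1 had 7.60, 7.51, 7.43 and 7.42 in HFD ATMs and 7.42, 7.46, 7.50 and 7.61 in LFD ATMs, with a mean difference of -0.0053 (SE 0.076). Psmc2, Psmc3 and Psmc6 differed by 0.19, 0.13 and 0.054, and of these Psmc3 was higher in HFD ATMs in all 4 experiments.

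All 8 lid genes among the 38 had a mean difference above 0 (100% against 51.3% of all genes), between 0.076 for Psmd13 and 0.56 for Psmd8. The small subunit Sem1, measured outside the 38 genes, differed by 0.0064, and by -0.046 after centring. Of them, 4 (Psmd3, Psmd7, Psmd8 and Psmd14) were higher in HFD ATMs in each experiment (50% against 11% of all genes). After centring 3 were (Psmd3, Psmd8 and Psmd14, 37.5% against 6.23%). At an unadjusted p under 0.05 in limma 2 lid genes were higher (25% against 3.3%), and 0 after centring (1.66% of all genes). Psmd8, a structural lid subunit, had 8.17, 8.59, 8.78 and 8.98 in HFD ATMs and 7.72, 7.83, 8.41 and 8.33 in LFD ATMs. The HFD array of experiment 1 lay under the LFD arrays of experiments 3 and 4, so the groups overlapped, while the differences within experiments were 0.45, 0.76, 0.37 and 0.65. The mean difference was 0.56 with an SE of 0.22, or 0.098 with experiment as a block. Psmd14, the deubiquitinase of the lid, had 7.55, 8.15, 8.34 and 8.17 in HFD ATMs and 7.43, 7.73, 8.00 and 7.79 in LFD ATMs. Both experiment 1 arrays lay below the 6 others, and the difference was 0.12 in experiment 1 and 0.34 to 0.42 in the others. Psmd13 had 7.55, 7.29, 7.35 and 7.45 in HFD ATMs and 7.36, 7.34, 7.30 and 7.35 in LFD ATMs, a difference of 0.076 (SE 0.078) with experiment 2 at -0.044. Psmd3, Psmd12, Psmd7, Psmd11 and Psmd6 differed by 0.31, 0.27, 0.17, 0.16 and 0.13.

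The base chaperones bind the ATPases while the ring is built and leave before the particle is complete. Psmd9 had 6.19, 5.87, 5.99 and 6.04 in HFD ATMs and 5.97, 5.40, 5.87 and 5.70 in LFD ATMs, higher in each experiment by 0.29 on average (SE 0.14). Psmd10, also known as gankyrin, had 5.82, 6.54, 6.43 and 6.33 in HFD ATMs and 5.45, 6.00, 6.45 and 6.13 in LFD ATMs. Its mean difference was 0.27 (SE 0.24), with experiment 3 at -0.019. Leaving out the LFD array of experiment 1 gave 0.086, and leaving out its HFD array gave 0.43. Psmd5 had 6.62, 6.74, 6.70 and 6.58 in HFD ATMs and 6.89, 6.28, 6.73 and 6.25 in LFD ATMs. Experiments 2 and 4, at 60% fat, gave differences of 0.45 and 0.33, and experiments 1 and 3, at 45% fat, gave -0.27 and -0.025.

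The activators lay on both sides of 0. Psme2, a subunit of PA28 that interferon-gamma induces, had 7.65, 7.98, 8.01 and 7.70 in HFD ATMs and 8.16, 8.04, 8.21 and 8.01 in LFD ATMs. Every HFD array lay below every LFD array, with differences of -0.50, -0.061, -0.19 and -0.31 and a mean of -0.27 (SE 0.11). Psme1, its partner in PA28, had 8.83, 8.68, 8.84 and 8.68 in HFD ATMs and 9.14, 8.61, 8.92 and 8.90 in LFD ATMs. It was lower in HFD ATMs in 3 of 4 experiments, with a mean difference over all 4 of -0.13 (SE 0.12) that was -0.051 without the LFD array of experiment 1 and -0.23 without that of experiment 2. Psme3, which forms a separate nuclear activator, had 7.76, 8.18, 8.20 and 8.12 in HFD ATMs and 7.74, 7.77, 7.94 and 7.87 in LFD ATMs. Its difference was 0.025 in experiment 1 and 0.26 to 0.41 in the others, with a mean of 0.24 (SE 0.11). Psme4, the activator PA200, had 7.44, 7.52, 7.51 and 7.51 in HFD ATMs and 7.51, 7.73, 7.80 and 7.33 in LFD ATMs, with a mean difference of -0.096 (SE 0.11) that was -0.029 without the LFD array of experiment 3 and -0.18 without that of experiment 4.

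**Figure D4:**
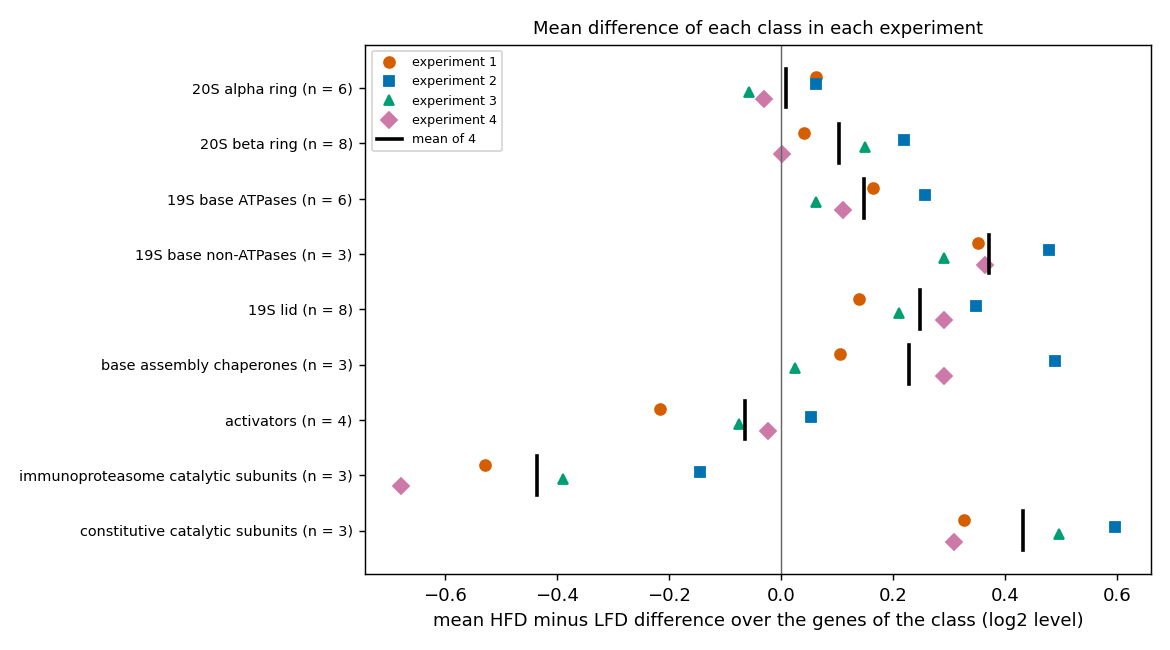
Mean difference in log2 level between HFD and LFD ATMs over the genes of each class, with 1 symbol per experiment and a black bar for the mean of 4, and with the constitutive and immunoproteasome catalytic genes as separate rows at the bottom. The constitutive genes lie between 0.31 and 0.60 and the immunoproteasome genes between -0.68 and -0.15, while the alpha ring lies between -0.058 and 0.063.

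The pathway around the proteasome was followed in 28 further genes, of 38 listed, that had a probe set with their symbol alone. Their median difference was 0.037. In limma at an unadjusted p under 0.05, 1 of the 28 was higher in HFD ATMs (3.57% against 3.3% of all genes) and 2 were lower (7.14% against 1.51%), and 0 passed after adjustment. With experiment as a block the higher gene was Uba6 in place of Vcp (3.57% against 7.95%), and Psmb9 joined the lower ones (3 of 28, 10.7% against 4.16%). After centring 0 were higher (0% against 1.66% of all genes) and the same 2 lower (7.14% against 2.14%). The gene higher without the block was Vcp, which encodes the p97 ATPase that extracts ubiquitinated proteins from complexes and membranes. It had 8.85, 9.01, 8.94 and 8.83 in HFD ATMs and 8.77, 8.55, 8.84 and 8.50 in LFD ATMs, a difference of 0.24 (SE 0.10), with an unadjusted p in limma of 0.042 without and 0.052 with the block and 0.18 after centring. The genes with the lower level were Psmb8 and Ngly1, which encodes the enzyme that strips N-glycans from proteins, among them the transcription factor NRF1 (encoded by Nfe2l1) that raises proteasome genes when proteasome capacity falls short. Ngly1 had 6.21, 6.19, 5.85 and 5.73 in HFD ATMs and 6.44, 6.28, 6.67 and 6.25 in LFD ATMs, a difference of -0.42 (SE 0.15) with no overlap. Nfe2l1 itself averaged 8.28 ± 0.53 in HFD and 8.27 ± 0.56 in LFD ATMs (SD, n = 4 each), and both its experiment 1 arrays were above the 6 others. Uba6, a ubiquitin-activating enzyme, had 6.40, 7.25, 7.34 and 7.22 in HFD ATMs and 6.20, 6.59, 7.06 and 6.94 in LFD ATMs. It was higher in HFD ATMs in each experiment, by 0.35 on average, with an SE of 0.26 that was 0.10 with experiment as a block. The difference was 0.19 without the LFD array and 0.57 without the HFD array of experiment 1. The 5 chaperones that assemble the core, Psmg1 to Psmg4 and Pomp, lay between -0.027 and 0.18.

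Experiments at 60% and at 45% fat were compared as a difference of differences. It is built from the same HFD minus LFD differences within experiments, so it too is a description of these arrays and not a test. Of the 38 genes, 28 had a larger HFD minus LFD difference at 60% than at 45% fat (73.7% against 59.5% of all genes) and 10 a smaller one (26.3% against 40.5%). The limma fit of it had no block for experiment, so the spread between experiments entered its error. In that fit 0 of 18820 genes passed after adjustment (the smallest was 0.9999). Before adjustment, at a p under 0.05, 1 proteasome gene had a larger difference at 60% (2.63% against 0.898% of all genes) and 0 a smaller one (0.298%). That gene was Psmd5, at 0.39 in the 60% experiments and -0.15 in the 45% experiments. The 60% experiments were also those with the shorter diets, so fat content, weeks on the diet and experiment cannot be told apart.

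Experiment 1, with its low macrophage and high endothelial markers, did not stand apart in most proteasome genes. Both its arrays lay below the 6 others for 5 of the 38 genes (Psma2, Psmb4, Psmd10, Psmd14 and Psme3, 13.2% against 14.9% of all genes) and above them for 1 (Psmd11, 2.63% against 16.4%). The deviations of the 2 arrays of an experiment from their diet means, over the 38 genes, had a correlation of 0.60, 0.30, 0.45 and 0.51 in experiments 1, 2, 3 and 4, where genes are not independent replicates. With experiments 2 to 4 alone, 18 genes (47.4% against 17.4% of all genes) were higher in HFD ATMs in each experiment and 5 (13.2% against 12.2%) were lower. Psmb6, Psmd1 and Psmb10 differed by 0.95, 0.61 and -0.41 without experiment 1.

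Promoter sequence was not used in choosing the genes and was read from RefSeq (build GRCm38.p6), which had a window of 300 bases, 250 before and 50 after the start site, for 33 of the 39 genes. It is shown for Psmb6 and Psmd1, which had the largest differences in favour of HFD ATMs, and for Psmb10, which had the largest in favour of LFD ATMs. The 250 bases before each start are given, with matches to TGACNNNGC, the core of the antioxidant response element that NRF1 and NRF2 read, in capitals. The windows are chr11:70525107-70525356 on the plus strand for Psmb6, chr1:86064369-86064618 on the plus strand for Psmd1 and chr8:105938393-105938642 on the minus strand for Psmb10.
Psmb6: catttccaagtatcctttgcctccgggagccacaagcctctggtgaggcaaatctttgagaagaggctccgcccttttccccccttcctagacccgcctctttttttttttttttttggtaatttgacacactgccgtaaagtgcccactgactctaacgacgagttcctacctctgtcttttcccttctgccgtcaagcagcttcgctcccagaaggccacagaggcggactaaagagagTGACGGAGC
Psmd1: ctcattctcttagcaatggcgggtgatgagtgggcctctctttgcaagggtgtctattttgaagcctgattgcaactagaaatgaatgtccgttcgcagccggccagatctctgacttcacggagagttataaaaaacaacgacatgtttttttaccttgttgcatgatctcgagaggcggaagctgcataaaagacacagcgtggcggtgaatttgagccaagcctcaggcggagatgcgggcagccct
Psmb10: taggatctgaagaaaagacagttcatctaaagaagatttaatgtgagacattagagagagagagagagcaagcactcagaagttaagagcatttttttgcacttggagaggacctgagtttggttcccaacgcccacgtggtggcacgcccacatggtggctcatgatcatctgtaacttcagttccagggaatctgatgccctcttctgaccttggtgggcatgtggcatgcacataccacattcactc

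Psmb6 held 1 match, which ended at the base just before the start site, and the windows of Psmd1 and Psmb10 held 0. Over both strands, 6 of the 33 promoters matched TGACNNNGC (18.2%), against 14% of 27025 genes in the table. The matches are shown with up to 10 bases on each side, in capitals, and those of Psme4, Psmd12 and Psmc6 are on the reverse strand. In the order shown, they begin at positions -9, -47, -31, -7, -247 and -227 relative to the start site.
Psmb6: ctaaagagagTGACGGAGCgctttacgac
Psmb5: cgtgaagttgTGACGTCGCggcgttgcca
Psmd9: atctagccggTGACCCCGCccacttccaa
Psme4: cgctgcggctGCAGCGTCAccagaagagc
Psmd12: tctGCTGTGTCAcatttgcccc
Psmc6: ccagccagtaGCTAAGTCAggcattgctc

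The matched genes had differences of 0.84, 0.18, 0.29, -0.096, 0.27 and 0.054 between HFD and LFD ATMs, in that order. Of the 7 proteasome genes at an unadjusted p under 0.05 in favour of HFD ATMs, only Psmb6 was among them. Genes without a promoter window could not match, and how many of the 7 lacked one is not given here. CCAAT, the box bound by NF-Y, was found on either strand in 12 of the 33 promoters (36.4%), against 41.1% of all genes in the table. No promoter of the 33 held both motifs, and a match says only that these letters are in the window.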

How the data were processed

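ATM RNA was measured on 8 whole-transcript microarrays, 4 per diet. Per the labels, the deposited log2 values came from RMA (no version given in the submitters' processing notes), which corrects background, quantile normalises arrays and summarises probes. Genes were named from the array's annotation table: of 35556 features, 21218 had 1 symbol, 1881 several and 12457 were not in the table, which gave 18820 genes. The brightest probe set was used for the 1386 genes with several.

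HFD and LFD arrays were compared on all genes with limma 3.58.1 (lmFit and eBayes, R 4.3.3, Benjamini-Hochberg, threshold 0.05) and without a block. The methods name Student's t-test and state no pairing. They leave the details of the array analysis to a supplement that was not available here. Deviations from the diet means correlated between the 2 arrays of each experiment (0.89, 0.36, 0.65 and 0.19 over all genes), so the experiment number, given by labels and paper, pairs the samples and was also fitted as a block. The fits were tested on simulated data.

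The members and gene lists were chosen with earlier results of these data known. Values on every array are given for the 2 genes with the largest and the gene with the smallest difference of each class, for Psmd1, Psmb10 and Psme1 to Psme4, and for the pathway genes with the 4 largest absolute differences or an unadjusted p under 0.05. Nfe2l1 was named after its values were seen. Alternatives were blocks, leaving out arrays, experiments or probe sets that were dim (log2 below 4.32) on over 4 arrays, median centring, mean of probe sets, an intensity trend and the methods' t-test.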

Additional observations from a re-analysis of the deposited data

Results flagged for a closer look

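In 5 of 76 sets of 4 arrays (38 proteasome genes in each diet), 1 array lay far from the other 3 relative to the spread of the set, which chance gives in about 1 in 20. Psmd4 was at 7.62 in HFD ATMs of experiment 4, above 7.36 to 7.39 in the other HFD arrays, and its LFD array of experiment 4 was high as well. Psmd11 was at 8.50 in HFD ATMs of experiment 1, above 8.42 to 8.43. Psme4 was at 7.44 in HFD ATMs of experiment 1, below 7.51 to 7.52. Psma3 was at 9.12 in LFD ATMs of experiment 1, below 9.16 to 9.17. Psmb1 was at 7.24 in LFD ATMs of experiment 2, below 7.36 to 7.37. Each gap was under 0.3 on the log2 scale.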

How the results depend on the processing

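Of the alternatives run, 0 gave a proteasome gene an adjusted p under 0.05, and 1 called genes elsewhere: without dim probe sets and with experiment as a fixed replicate block, an alternative chosen after seeing the data, 25 genes passed. The methods' t-test gave 7 proteasome genes higher and 2 lower at its threshold and 0 after Benjamini-Hochberg adjustment. The 7 proteasome genes higher in HFD ATMs at an unadjusted p under 0.05 became 10 with a fixed and 13 with a random replicate block, 2 after median centring, 11 without experiment 1, 2 without experiment 2 and 3 without experiment 3 (the last 2 chosen after seeing the data), and 5 to 11 with 1 array left out. The 2 lower became 1 without dim probe sets, with or without the block, 1 with an intensity trend, 1 without experiment 2, and 0 without experiment 1, with or without the block, or without experiment 4. They were 1 to 2 with 1 array left out. Among all genes 3.3% were higher in the main fit, 7.95% with the fixed block, 1.66% after centring and 6.26% without experiment 1. In the same order 1.51%, 4.16%, 2.14% and 2.66% were lower. These shares were not counted for the other settings. After centring 7 instead of 15 genes were higher in all 4 experiments and 5 instead of 3 lower, and 5 were lower over experiments 2 to 4 or 1 to 3. The median over the 38 genes, 0.13, was 0.083 after centring. The beta ring median of 0.020 was -0.032 after centring, -0.019 without experiment 2 and -0.0057 to 0.083 with 1 array left out. The alpha ring median of -0.015 was -0.067 after centring, 0.012 without experiment 3 and -0.042 to 0.025 with 1 array left out. Psmc1, at -0.0053, was 0.027 as the mean of its probe sets, 0.054 without experiment 4, 0.015 without experiment 3 and -0.040 to 0.031 with 1 array left out, above 0 without HFD array 3 (0.014), HFD array 4 (0.017) or LFD array 4 (0.031). The other 26 genes given on every array kept their sign under each alternative run for them. Other small differences did not. Without experiment 1 Psma2, Psmb2 and Psmb3 were at 0.045, 0.033 and 0.010, and Psmg2, Psmg3, Psmg4, Pomp, Sem1 and Psmb11 also changed sign. After centring Psmb1 was at -0.0071, Nfe2l1 at -0.047, Sem1 at -0.046 and Pomp at -0.031. With 1 array left out Psma5 was 0.024 to 0.16, Psmd5 0.025 to 0.24, Psmd13 0.028 to 0.12, Psmd4 0.081 to 0.20, Psmc5 0.11 to 0.25, Psma1 0.15 to 0.30, Psmd9 0.18 to 0.37 and Psmd14 0.22 to 0.49. The cause of these changes was not tested. With 4 arrays per diet, only unadjusted calls were made for these genes.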
